A study of Mus musculus with 6 samples.

Results

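Chka, Mboat1 and 8 other genes of phosphatidylcholine synthesis and remodelling were followed in sorted intercalated cells of the mouse kidney after ischemia. The 10 genes are the choline transporter Slc44a1, the choline kinases Chka and Chkb, the cytidylyl-transferases Pcyt1a and Pcyt1b, the transferases Chpt1 and Cept1, the acyltransferases Mboat1 and Lpcat3, and the phospholipase Pld1. They were found by symbol among 37583 genes, and 9 of them had enough reads to be tested. The group was chosen by the measured difference between ischemic and sham samples in these same libraries, so the differences of the 10 genes below are a description and carry no test.

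The study compared 3 samples taken 2 h after renal ischemia-reperfusion injury (IRI), where the kidney is cut off from its blood supply for a time, with 3 samples taken 2 h after sham surgery. In both groups the cells were EGFP+ cells sorted in 2 rounds from the renal medulla of B1 VATPase EGFP mice aged 12 weeks, whose transgene puts EGFP in intercalated cells, and each sample pooled 4 kidneys of 2 mice. The genotype entry of the labels names CX3CR1 as the gene that controls EGFP, and the tissue entry names the epididymis, a male duct whose clear cells also use the B1 proton pump subunit. The series' design text names the renal medulla. Whether the 3 pools of a group are separate experiments is not stated, so a p-value reflects only how far these pools differ, which may be technical.

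The libraries held 22478011 to 24245330 reads counted in genes in the IRI group and 17421669 to 23061108 in the sham group. Markers of intercalated cells summed to 21233 to 25334 CPM (counts scaled to library size) in IRI samples and 20238 to 26478 CPM in sham samples, and 2 of the 8 were called lower in IRI. One was Atp6v1b1, the gene of the B1 subunit, at 1249 ± 168 CPM in IRI and 1619 ± 123 CPM in sham. The other was Atp6v1c2, at 623 ± 150 CPM in IRI and 1137 ± 270 CPM in sham. Markers of the epididymis summed to at most 0.449 CPM in IRI samples and 0.326 CPM in sham samples, and Cst11, Lcn5, Lcn8 and Rnase9 were at 0 in all libraries. Cx3cr1 had 1 read in each group. Markers of neighbouring principal cells, which take up water and sodium, summed to 5778 to 11372 CPM in IRI and 11562 to 12510 CPM in sham. Those of the thick ascending limb summed to 885 to 1395 CPM in IRI and 1263 to 1975 CPM in sham. Of the 5 tested markers of each of these lists, 1 was called lower in IRI and 4 were not called. The called ones were Aqp3 (834 ± 113 CPM in IRI and 1098 ± 31.9 CPM in sham) and Kcnj1 (123 ± 48.4 CPM in IRI and 625 ± 172 CPM in sham). Aqp2, the largest part of the principal cell sum, was not called, at 6578 ± 2443 CPM in IRI and 9363 ± 329 CPM in sham.

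Phosphatidylcholine is the main phospholipid of animal membranes, and most cells build it by the Kennedy pathway. Choline enters the cell through transporters, is phosphorylated by choline kinase, is joined to cytidine by CTP:phosphocholine cytidylyl-transferase, the usual rate-limiting step, and is then moved onto diacylglycerol. Finished phospholipids are remodelled when a phospholipase removes a fatty acid and a lysophospholipid acyltransferase puts another in its place. Renal tubule cells depend on their phospholipids for the folded membranes and the vesicles that carry pumps and channels, and phospholipid breakdown is a long-known event of renal ischemia.

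The start regions of Chka, its paralog Chkb and Mboat1 are shown first, because Chka and Mboat1 stood apart from the other genes in the size of their difference and Chkb catalyses the same step as Chka. The sequences are RefSeq windows of 300 bases around the transcription start on GRCm38.p6, printed 5′ to 3′ on the gene's strand. Capitals mark matches to a CCAAT box (CCAAT, or ATTGG on the other strand), a GC box (GGGCGG or CCGCCC) or the core of the hypoxia response element (ACGTG or CACGT). The window of Chka lies at chr19:3851523-3851822 on the plus strand, that of Chkb at chr15:89429878-89430177 on the minus strand and that of Mboat1 at chr13:30136240-30136539 on the plus strand.
Chka: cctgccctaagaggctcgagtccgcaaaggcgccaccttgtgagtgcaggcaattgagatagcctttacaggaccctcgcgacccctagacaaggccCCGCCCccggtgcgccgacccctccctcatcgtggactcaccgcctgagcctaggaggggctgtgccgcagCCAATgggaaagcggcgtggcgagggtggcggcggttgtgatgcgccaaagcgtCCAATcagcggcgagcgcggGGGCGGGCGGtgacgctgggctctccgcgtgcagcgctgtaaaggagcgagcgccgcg
Chkb: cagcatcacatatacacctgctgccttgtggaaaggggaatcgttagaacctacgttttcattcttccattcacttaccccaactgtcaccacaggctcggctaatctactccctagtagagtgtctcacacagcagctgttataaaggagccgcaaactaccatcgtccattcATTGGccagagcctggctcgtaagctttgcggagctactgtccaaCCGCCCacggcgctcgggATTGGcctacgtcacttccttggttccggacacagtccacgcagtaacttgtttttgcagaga
Mboat1: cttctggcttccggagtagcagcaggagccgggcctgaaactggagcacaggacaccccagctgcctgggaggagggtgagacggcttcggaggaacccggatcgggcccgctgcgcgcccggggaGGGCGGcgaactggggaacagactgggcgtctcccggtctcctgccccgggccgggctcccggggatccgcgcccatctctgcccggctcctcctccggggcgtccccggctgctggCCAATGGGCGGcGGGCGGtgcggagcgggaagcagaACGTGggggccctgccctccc
The Chka window held 2 CCAAT boxes and 3 GC boxes, of which the last pair overlaps. The Chkb window held 2 CCAAT boxes and 1 GC box, and that of Mboat1 held 1 hypoxia core, 1 CCAAT box and 3 GC boxes, with the CCAAT box ending where a GC box begins. Over 32851 windows of the same length, 37.4% held a CCAAT box, 35.7% a GC box and 19.6% a hypoxia core. The 3 windows held neither an AP-1 site (TGANTCA, in 7.81% of all windows) nor a cAMP response element (TGACGTCA, in 1.79%), both searched on both strands. The windows of Chka and Mboat1 were rich in G and C, at 68.7% and 74.3%, and that of Chkb held 51.7%. Windows of Cept1, a gene of the set that was not called, also held the hypoxia core, with 2 matches in window 2 and 0 in window 3.

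Chka and Mboat1 were 5 to 6 times as high after ischemia, the other genes of the set differed by less, and the samples of the final transferases overlapped between the groups. Values below are the authors' RPKM, reads scaled to gene length and library size, which sets genes side by side only as well as the authors' gene lengths hold. These lengths could not be traced to their gene models. Against the exonic bases of GENCODE M21 they differ by the largest factor in Chkb (5434 against 3061 bases) and Chpt1 (5097 against 8324). Among the genes checked outside the 10, the factor was largest in Mboat2 (2369 against 9566) and Slc44a2 (3418 against 8677). Shares and orders are therefore also given with GENCODE lengths, an alternative chosen after seeing the data. Fold changes do not depend on the length. Log2 fold changes are IRI over sham, with their standard error, from an edgeR quasi-likelihood fit over all 13881 tested genes, and a called gene is one with an adjusted p under 0.05. Of the 9 tested genes of the set, 6 were called higher and 0 lower in IRI, where 24.2% of all tested genes were called higher and 21.2% lower, and nothing is read from this count because the genes were chosen on this contrast. DESeq2 and limma-voom also called 0 lower, and each of the 3 tools had 1, Pld1, at an unadjusted p under 0.05. The median log2 fold change of the 9 genes was 0.53, against 0.00038 for all tested genes. In these bulk samples, fewer cells of a type and less RNA per cell cannot be told apart.

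**Figure D1:**
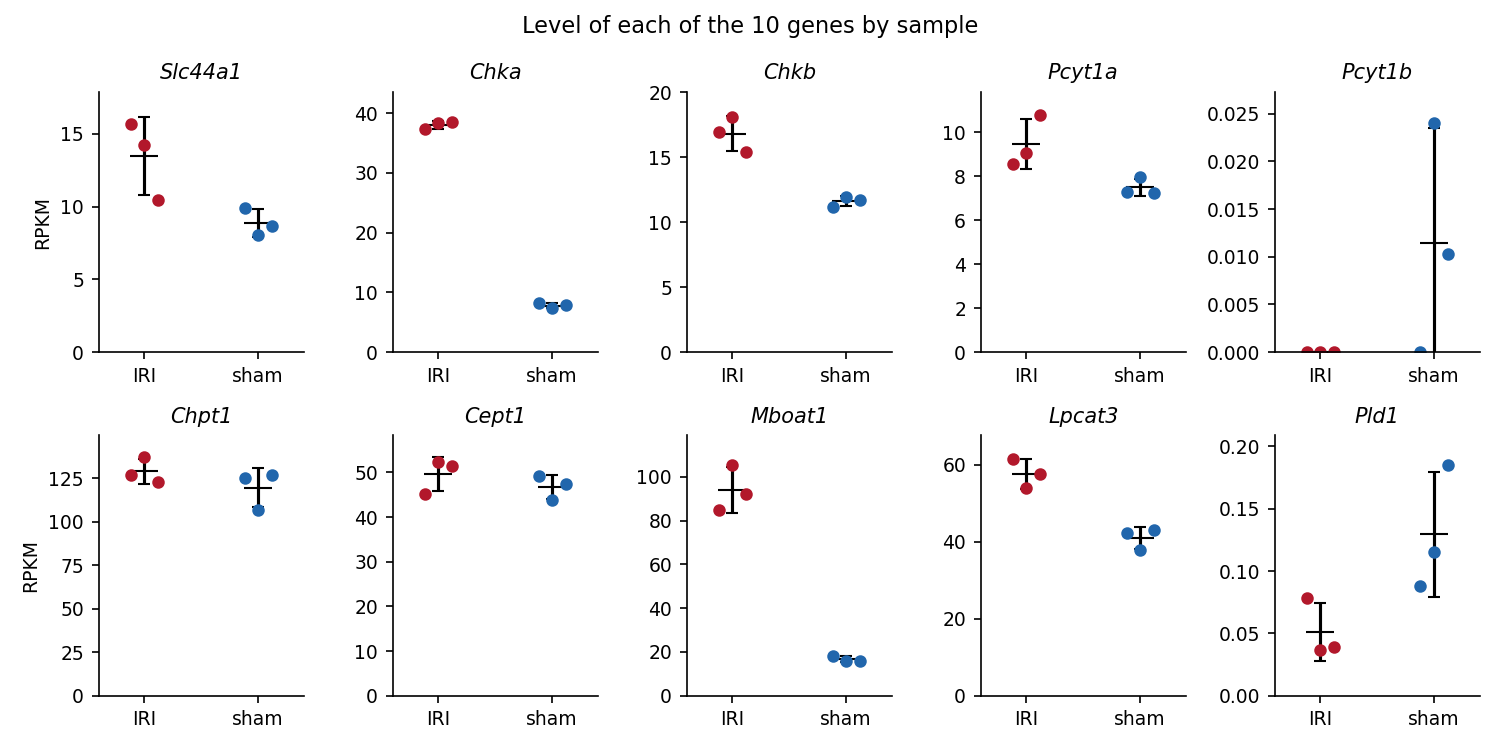
RPKM of each of the 10 genes in the 3 IRI samples (red, left) and the 3 sham samples (blue, right), with the mean and SD in black; each panel has its own axis from 0. Chka and Mboat1 separate the groups by the widest gap, and the samples of Chpt1 and Cept1 interleave.

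Choline is brought in by Slc44a1, a choline transporter of the plasma membrane and mitochondria. Its level was 15.6, 14.3 and 10.5 RPKM in IRI samples 1, 2 and 3, against 9.90, 8.04 and 8.65 RPKM in sham samples 1, 2 and 3. The groups did not overlap, but IRI sample 3 lay nearer to the sham samples than to the other IRI samples. The log2 fold change was 0.64 ± 0.15, and the call was lost when libraries were scaled by their size alone (0.44).

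Choline kinase phosphorylates choline, the step that traps it in the cell. Chka, which encodes choline kinase alpha, had 37.3, 38.3 and 38.6 RPKM in the IRI samples and 8.19, 7.35 and 7.81 RPKM in the sham samples. The means were 38.0 ± 0.686 RPKM in IRI and 7.78 ± 0.420 RPKM in sham (SD, n = 3 each), so the gap between the groups was many times the spread within either. The reads behind it numbered 10066 to 10522 per IRI library and 1762 to 2544 per sham library. The fold was 5.01, the log2 fold change was 2.33 ± 0.10, and 3.34% of all tested genes had a higher one. Over the 15 alternative settings the value of Chka stayed between 2.12 and 2.35.

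Chkb encodes the beta form of the same kinase. Its level was 17.0, 18.1 and 15.4 RPKM in IRI samples and 11.2, 12.0 and 11.7 RPKM in sham samples, again with no overlap. The log2 fold change was 0.57 ± 0.10, or a fold of 1.48. In the GENCODE M21 annotation of GRCm38, 50.7% of the exonic bases of Chkb also belong to a readthrough gene on the same strand, Gm44502. Counting ignored strand, and 10.45% of the exonic bases of Chkb overlap C730034F03Rik on the other strand. The level of Chkb is therefore uncertain. The overlaps of Chka with annotated antisense genes were 165 and 74 bases of its 12024 exonic bases.

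The balance of the kinase pair differed between the groups. Chka made up 68.7%, 67.9% and 71.5% of the summed Chka and Chkb RPKM in IRI samples, against 42.2%, 38.0% and 40.0% in sham samples. By these values Chkb was the more abundant kinase transcript in every sham sample and Chka in every IRI sample. This also held with GENCODE lengths, where the share of Chka was 56.7 ± 2.18% in IRI and 27.9 ± 1.75% in sham (SD, n = 3 each). Neither set of lengths allows for the exonic bases that Chkb shares with Gm44502 and C730034F03Rik. Which kinase transcript was the more abundant in a group is therefore as uncertain as the level of Chkb. The summed level of both was 54.9 ± 1.36 RPKM in IRI and 19.4 ± 0.114 RPKM in sham (SD, n = 3 each).

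The cytidylyl-transferase step showed a small difference that depended on the processing. Pcyt1a, the form found in most tissues, had 8.57, 9.05 and 10.8 RPKM in IRI samples and 7.29, 7.95 and 7.25 RPKM in sham samples. The groups did not overlap, but the lowest IRI sample was close to the highest sham sample. The log2 fold change was 0.37 ± 0.12, and the call was lost in 10 of 15 alternative settings, with values between 0.17 and 0.45. Among these were both other scalings and the fits without IRI sample 2, IRI sample 3 or any one of the sham samples. Its paralog Pcyt1b had 0 reads in all IRI libraries, where the 3 reads that a count of 0 allows over the group correspond to 0.00807 RPKM, and 0, 3 and 1 reads in the sham libraries. No difference of Pcyt1b was detectable at this depth.

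The last step joins phosphocholine to diacylglycerol and showed the smallest differences of the tested genes. Chpt1, the cholinephosphotransferase, had 127, 137 and 123 RPKM in IRI samples, against 125, 107 and 127 RPKM in sham samples. Cept1, which makes both phosphatidylcholine and phosphatidylethanolamine, had 45.2, 52.3 and 51.4 RPKM in IRI samples and 49.2, 43.8 and 47.4 RPKM in sham samples. In both genes the groups overlapped, and the log2 fold changes of 0.15 ± 0.11 for Chpt1 and 0.12 ± 0.10 for Cept1 were not called. Both turned below 0 when libraries were scaled by their size alone (-0.056 for Chpt1 and -0.083 for Cept1), a scaling that moves the median of all genes by -0.20. Chpt1 made up 72.2 ± 1.65% of the summed level of the pair in IRI and 71.8 ± 0.931% in sham (SD, n = 3 each), or 56.4 ± 2.01% in IRI and 55.9 ± 1.14% in sham with GENCODE lengths. In GRCm38, 24.7% of the exonic bases of Cept1 overlap Dennd2d on the other strand.

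Mboat1 encodes a lysophospholipid acyltransferase that acts mainly on lysophosphatidylethanolamine and lysophosphatidylserine. It had 84.7, 106 and 92.1 RPKM in IRI samples 1, 2 and 3, against 18.2, 16.0 and 15.9 RPKM in sham samples 1, 2 and 3. The lowest IRI sample lay far above the highest sham sample, and the group means were 94.1 ± 10.6 RPKM in IRI and 16.7 ± 1.34 RPKM in sham (SD, n = 3 each). The fold was 5.79 and the log2 fold change 2.53 ± 0.12, which 2.80% of all tested genes exceeded. It stayed between 2.33 and 2.61 over the 15 alternatives. The annotation holds no gene that overlaps the exons of Mboat1.

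Lpcat3, the acyltransferase that puts polyunsaturated fatty acids into lysophosphatidylcholine, had 61.5, 53.9 and 57.6 RPKM in IRI samples and 42.4, 37.9 and 43.0 RPKM in sham samples. The groups did not overlap, and the log2 fold change was 0.53 ± 0.10. Mboat1 was the lower of these acyltransferases in every sham sample and the higher in every IRI sample, at 61.9 ± 4.14% of their summed level in IRI and 28.9 ± 1.69% in sham (SD, n = 3 each). With GENCODE lengths the share was 61.4 ± 4.16% in IRI and 28.5 ± 1.67% in sham. In GRCm38, 10.2% of the exonic bases of Lpcat3 overlap Emg1 on the other strand, which neither set of lengths allows for. Against its close relative Mboat2, Mboat1 held 82.8 ± 3.48% in IRI and 39.6 ± 3.03% in sham, or 95.1 ± 1.11% in IRI and 72.7 ± 2.51% in sham with GENCODE lengths.

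**Figure D2:**
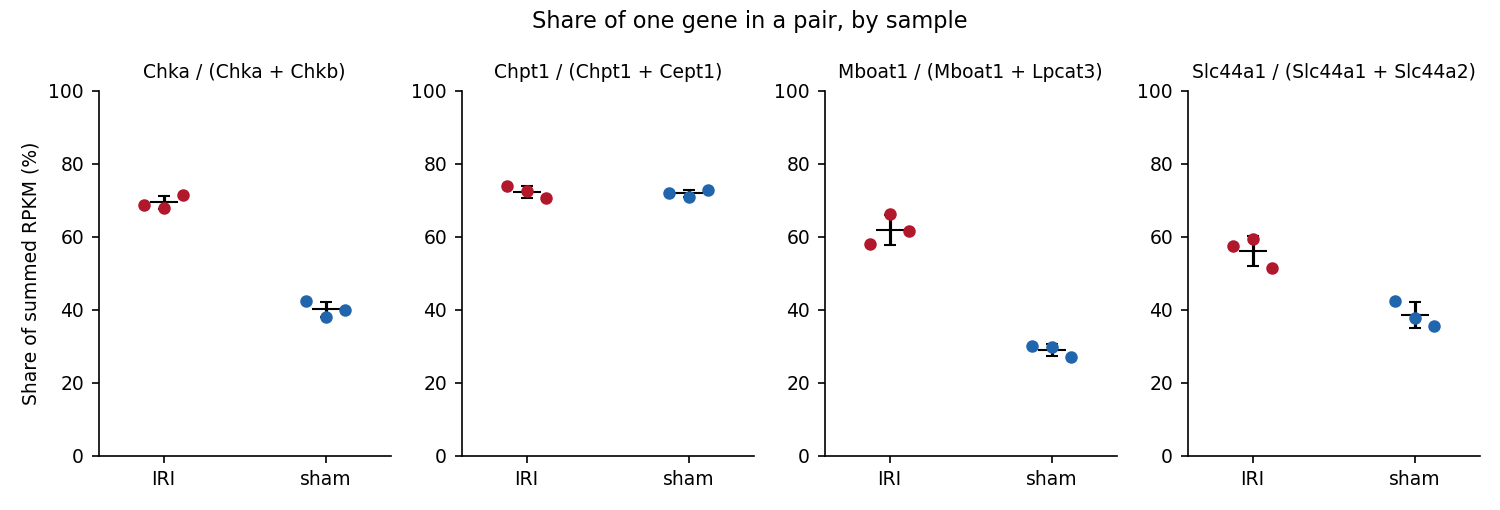
Share of one gene in the summed RPKM of a pair (authors' gene lengths), in percent, in the 3 IRI samples (red, left) and 3 sham samples (blue, right), with the mean and SD in black. The shares of Chka, Mboat1 and Slc44a1 differ between the groups, at 69.4%, 61.9% and 56.0% in IRI and 40.1%, 28.9% and 38.5% in sham, while that of Chpt1 is 72.2% in IRI and 71.8% in sham.

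Pld1, which splits phosphatidylcholine into phosphatidic acid and choline, was close to the detection limit. It had 15, 7 and 7 reads in IRI libraries and 19, 23 and 29 reads in sham libraries, or 0.0783, 0.0367 and 0.0387 RPKM in IRI and 0.0882, 0.115 and 0.185 RPKM in sham. The IRI samples all lay below the sham samples. The log2 fold change was -1.27 ± 0.47, and it rests on 29 reads in IRI and 71 reads in sham in all.

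Across the 10 genes, the IRI values lay above all sham values in 6, where 27.6% of all tested genes showed this, and below all sham values in 1, where 29.1% did. In sham cells the order of the levels, high to low, was Chpt1, Cept1, Lpcat3, Mboat1, Chkb, Slc44a1, Chka, Pcyt1a, Pld1 and Pcyt1b. Slc44a1, Chka and Pcyt1a were neighbours there whose sample ranges overlapped. In IRI cells the order was Chpt1, Mboat1, Lpcat3, Cept1, Chka, Chkb, Slc44a1, Pcyt1a, Pld1 and Pcyt1b, with overlapping neighbours in Chkb, Slc44a1 and Pcyt1a. With GENCODE lengths the order in sham began with Chpt1, Cept1, Lpcat3, Chkb and Mboat1, and in IRI with Mboat1, Chpt1, Cept1, Lpcat3 and Chka. Chka had rank 5 in IRI and rank 7 in sham with either set of lengths, and Mboat1 had rank 2 in IRI and 4 in sham with the authors' lengths and rank 1 in IRI and 5 in sham with those of GENCODE.

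**Figure D3:**
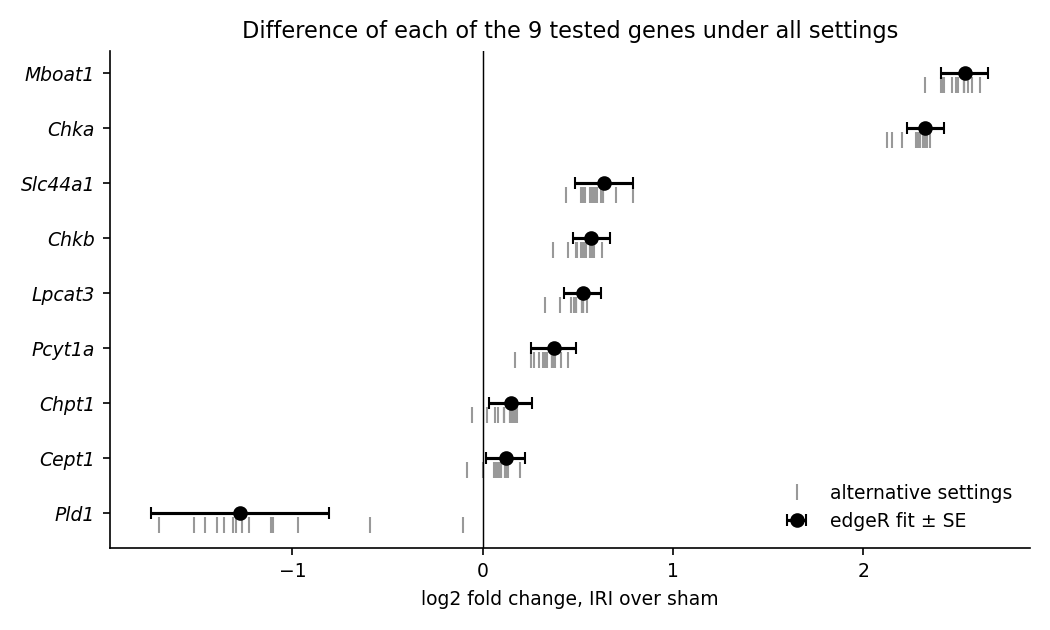
Log2 fold change, IRI over sham, of the 9 tested genes in the edgeR fit (black points, with the standard error) and in the alternative settings (grey ticks). Mboat1 and Chka lie at 2.53 and 2.33 and stay above 2.12 in all settings, Chpt1 and Cept1 lie about 0, and Pld1 has the widest range.

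Leukocyte markers summed to 73.0 to 110.6 CPM in IRI and 16.0 to 23.6 CPM in sham, and 4 of 6 tested were called higher. These were Cd68 (37.7 ± 14.2 CPM in IRI and 0.903 ± 0.322 CPM in sham), Cd14 (32.7 ± 9.17 CPM in IRI and 7.87 ± 2.52 CPM in sham), Ptprc (17.4 ± 1.55 CPM in IRI and 10.2 ± 1.90 CPM in sham) and Lyz2 (1.77 ± 0.753 CPM in IRI and 0.544 ± 0.0774 CPM in sham; SD, n = 3 each). Csf1r (0.663 ± 0.260 CPM in IRI and 0.538 ± 0.228 CPM in sham) was not called. Nor was C1qa (0.495 ± 0.142 CPM in IRI and 0.463 ± 0.407 CPM in sham), and 5 further markers had too few reads to be tested. The part of leukocytes and of principal cells in the differences of the 10 genes was not tested.

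The genes whose profile over the 6 samples was nearest to that of Chka were sought among 8157 tested genes, by the Euclidean distance between centred log2 CPM values. Among the nearest were Mcl1 at a distance of 0.18, Mpzl3 at 0.22, B4galt5 at 0.23 and Sowahc at 0.26. Mboat1 had rank 10 for Chka, at 0.33. Among the nearest to Mboat1 outside the 10 genes were Smad3 at 0.17, Clic4 at 0.22, Cxcl16 at 0.29 and Mcl1 at 0.34. Mcl1 encodes an anti-apoptotic protein of the BCL2 family, B4galt5 a lactosylceramide synthase and Smad3 a transducer of TGF-beta. The distance is set mainly by the size of the difference between the groups, since the log2 fold changes of these genes all lay between 2.18 and 2.57.

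The rest of phospholipid metabolism was read in 80 further genes in 7 lists, of which 66 were tested. In IRI 17 of them rose (25.8%, against 24.2% of all tested genes) and 22 fell (33.3%, against 21.2%), by edgeR's quasi-likelihood test with Benjamini-Hochberg adjustment over all genes, the source of all adjusted p-values below. Their median log2 fold change was -0.03, against 0.00038 for all tested genes. Of the genes that rose, 14 kept the call under library-size scaling, and all 22 that fell kept theirs. This scaling shifts the median of all genes by -0.20, which favours the calls of genes that fell. In all 15 alternatives, 14 of the 17 that rose and 17 of the 22 that fell kept the call.

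**Figure D4:**
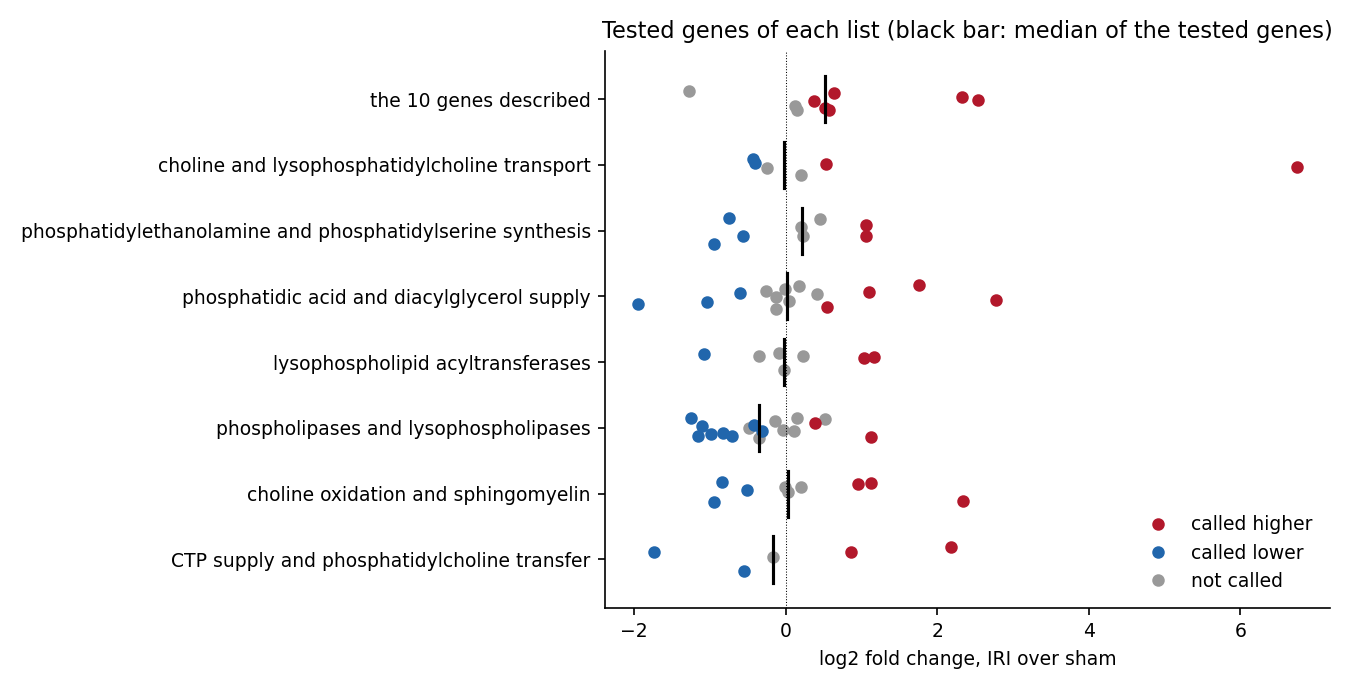
Log2 fold change, IRI over sham, of each tested gene (points) in the set described and in the 7 further lists, with the median of each list as a black bar; red genes were called higher, blue ones lower and grey ones were not called. All 7 further lists hold called genes in both directions. The phospholipases have 8 lower and 2 higher of 17 tested, where 21.2% of all tested genes were called lower and 24.2% higher.

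Among carriers of choline and lysophosphatidylcholine, 2 of 6 tested genes rose, 2 fell and 2 were not called (median -0.02). Mfsd2a, which imports lysophosphatidylcholine, had 246 reads over the IRI libraries and 2 over the sham libraries. The ratio of counts scaled to the libraries was 111, with an exact 95% interval of 30.5 to 925 that covers counting error only, and the adjusted p was 3.3e-05. Its level after ischemia was still low, at 1.92, 1.41 and 1.70 RPKM in the IRI samples, against 0.0178, 0 and 0.0245 RPKM in the sham samples. Of the relatives of Slc44a1, Slc44a3 fell (log2 fold change -0.43 ± 0.12, adjusted p = 0.0201), with 49.9 ± 7.54 RPKM in IRI and 68.9 ± 0.555 RPKM in sham (SD, n = 3 each). Slc44a2 fell by a like amount (-0.40 ± 0.12, adjusted p = 0.0220), but lost the call without IRI sample 2 or 3 or sham sample 3, where the adjusted p reached 0.083. Slc44a4 was not called, at 19.6 ± 2.80 RPKM in IRI and 17.4 ± 0.905 RPKM in sham. Slc44a1 made up 56.0 ± 4.02% of the summed Slc44a1 and Slc44a2 RPKM in IRI and 38.5 ± 3.52% in sham, or 76.4 ± 2.99% in IRI and 61.4 ± 3.49% in sham with GENCODE lengths. The call of Mfsd7b (Flvcr1), a choline and heme carrier, rested on IRI samples that overlapped the sham samples (log2 0.53 ± 0.19, adjusted p = 0.0451) and was lost in 10 of the alternatives, with an adjusted p of up to 0.183, among them without IRI sample 1 or 3 or any one of the sham samples.

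Genes of the branch that makes phosphatidylethanolamine moved in both directions. Cept1, described above, also performs its last step and was not called, at 49.6 ± 3.87 RPKM in IRI and 46.8 ± 2.75 RPKM in sham (SD, n = 3 each). Etnk1, an ethanolamine kinase gene, fell to 11.2, 10.1 and 11.7 RPKM in IRI samples, against 17.9, 27.5 and 20.1 RPKM in sham samples (log2 -0.95 ± 0.16, adjusted p = 0.00143). Pcyt2, the cytidylyl-transferase of this branch, had 28.2, 29.7 and 23.1 RPKM in IRI and 45.6, 47.3 and 46.4 RPKM in sham (-0.75 ± 0.11, adjusted p = 0.000734). Ept1, also named Selenoi, which performs the last step, rose (1.06 ± 0.15, adjusted p = 0.000721), at 3.72, 2.65 and 3.04 RPKM in IRI and 1.42, 1.71 and 1.50 RPKM in sham. Etnk2 also rose (1.07 ± 0.22, adjusted p = 0.00423), with 1.52 ± 0.250 RPKM in IRI and 0.744 ± 0.109 RPKM in sham. It was expressed below Etnk1, also with GENCODE lengths. None of Etnk1, Pcyt2, Ept1 and Etnk2 had overlapping groups. The phosphatidylserine synthase gene Ptdss2, named after its values were seen, fell (-0.56 ± 0.09, adjusted p = 0.00121), while Ptdss1 was not called (0.24 ± 0.11), giving 2 genes that rose, 3 that fell and 3 not called in this list (median 0.22).

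Of 14 tested genes that supply phosphatidic acid and diacylglycerol, 4 rose, 3 fell and 7 were not called (median 0.02). The glycerol-3-phosphate acyltransferases, which start glycerolipid synthesis, moved apart. Agpat9 (Gpat3), found at the endoplasmic reticulum, rose to 8.98, 11.9 and 9.64 RPKM in IRI samples, against 1.94, 1.31 and 1.31 RPKM in sham samples (log2 2.77 ± 0.20, adjusted p = 2.1e-05). Gpam, the mitochondrial form, fell to 2.08, 1.37 and 1.55 RPKM in IRI samples, against 7.50, 6.84 and 5.41 RPKM in sham samples (-1.94 ± 0.19, adjusted p = 8.3e-05). Agpat6 (Gpat4) was not called and held 19.5 ± 2.64 RPKM in IRI and 19.3 ± 3.21 RPKM in sham. Gpam was thus the more abundant of Agpat9 and Gpam in each sham sample and Agpat9 in each IRI sample, also with GENCODE lengths. The lipid phosphate phosphatases Ppap2c (108 ± 9.03 RPKM in IRI and 32.6 ± 2.89 RPKM in sham, log2 1.76 ± 0.11, adjusted p = 1.2e-05) and Ppap2a (9.77 ± 2.04 RPKM in IRI and 4.66 ± 1.44 RPKM in sham, 1.11 ± 0.25, adjusted p = 0.00677) both rose. The other phosphatase genes of the list, named after their values were seen, did not. Lpin1 fell (-1.04 ± 0.20, adjusted p = 0.00294), with 1.33 ± 0.350 RPKM in IRI and 2.81 ± 0.117 RPKM in sham. Ppap2b, Lpin2 and Lpin3 were not called.

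Of 7 other lysophospholipid acyltransferases tested, 2 rose, 1 fell and 4 were not called (median -0.02). Lpgat1, first described as an acyltransferase of lysophosphatidylglycerol, rose to 15.6, 16.8 and 15.1 RPKM in IRI samples, against 7.79, 7.32 and 6.60 RPKM in sham samples (log2 1.17 ± 0.10, adjusted p = 5.2e-05). Mboat2, the closest relative of Mboat1 in the lists, was not called, at 19.4 ± 3.26 RPKM in IRI and 25.4 ± 1.81 RPKM in sham (-0.36 ± 0.14, adjusted p = 0.0598). It was called lower in 8 of the 15 alternatives. The calls of Lpcat4 (1.03 ± 0.33, adjusted p = 0.0411) and Lpcat1 (-1.08 ± 0.37, adjusted p = 0.0395) were lost in 9 and 8 of the 15 alternatives. Without single samples, that of Lpcat4 was lost without IRI sample 1 or any one sham sample (adjusted p up to 0.124) and that of Lpcat1 without any one IRI sample or without sham sample 1 or 3 (adjusted p up to 0.14), where the log2 fold change was -0.71 without sham sample 1. An IRI sample of 39.0 RPKM stood apart from the other IRI samples of Lpcat4, at 21.7 and 14.8 RPKM, and without it the log2 fold change was 0.54. Lpcat1 was below 1 RPKM in every sample.

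Phospholipases and lysophospholipases had 2 of 17 tested genes that rose, 8 that fell and 7 not called, with a median log2 fold change of -0.36. The shares were 11.8% higher and 47.1% lower, where 24.2% of all tested genes were called higher and 21.2% lower. The list was chosen with earlier results of these data known and was not tested as a set. Pla2g15, the lysosomal phospholipase A2, fell to 2.79, 3.19 and 2.46 RPKM in IRI samples, against 7.67, 6.34 and 6.58 RPKM in sham samples (-1.25 ± 0.16, adjusted p = 0.000351). Enpp2, the secreted lysophospholipase D called autotaxin, fell (-1.15 ± 0.27, adjusted p = 0.0107), with 10.6 ± 1.88 RPKM in IRI and 24.3 ± 8.42 RPKM in sham. Pnpla7, a lysophospholipase, fell (-1.10 ± 0.22, adjusted p = 0.00373), with 0.575 ± 0.160 RPKM in IRI and 1.27 ± 0.101 RPKM in sham. Pld2, the paralog of Pld1, went the other way and rose (1.13 ± 0.20, adjusted p = 0.00188), with 2.78, 3.35 and 2.00 RPKM in IRI samples and 1.36, 1.20 and 1.25 RPKM in sham samples. Pld1 made up 1.90 ± 0.825% of the summed Pld1 and Pld2 level in IRI and 9.25 ± 3.45% in sham (SD, n = 3 each). With GENCODE lengths its share was 1.29 ± 0.563% in IRI and 6.44 ± 2.47% in sham. Gde1, a glycerophosphodiesterase, had the highest level of the list and was not called (329.7 ± 45.4 RPKM in IRI and 312 ± 22.6 RPKM in sham).

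Choline is also used for betaine, and phosphatidylcholine gives its head group to sphingomyelin. In this list 3 of 9 tested genes rose, 3 fell and 3 were not called (median 0.03). The sphingomyelin synthases, which take the head group from phosphatidylcholine, both rose. Sgms2, the plasma membrane form, had 34.7, 70.0 and 70.4 RPKM in IRI samples and 15.1, 9.41 and 11.0 RPKM in sham samples (log2 2.34 ± 0.32, adjusted p = 0.00136). Sgms1, the Golgi form, had 23.3, 31.9 and 30.1 RPKM in IRI samples and 12.7, 15.0 and 12.4 RPKM in sham samples (1.13 ± 0.14, adjusted p = 0.00035). IRI sample 1 was the lowest of its group for both, and the groups did not overlap. Their relative Samd8, a ceramide phosphoethanolamine synthase, rose too (0.95 ± 0.21, adjusted p = 0.00602). The sphingomyelinases Smpd1 and Smpd2, which break down sphingomyelin and were named after their values were seen, fell. Smpd1, the lysosomal acid form, had 49.5, 55.8 and 60.1 RPKM in IRI samples and 92.1, 107 and 106 RPKM in sham samples (-0.84 ± 0.11, adjusted p = 0.000448), and Smpd2 had a log2 fold change of -0.51 ± 0.14 (adjusted p = 0.0147, and 0.0545 without IRI sample 2). Smpd4 was not called (0.03) and Smpd3 had too few reads to be tested. Sardh, the sarcosine dehydrogenase downstream of betaine, fell (-0.94 ± 0.20, adjusted p = 0.00472), and Chdh, the choline dehydrogenase, was not called (15.9 ± 4.29 RPKM in IRI and 14.2 ± 1.22 RPKM in sham).

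The cytidylyl-transferases use CTP, and the gene of CTP synthase, Ctps, rose to 25.9, 17.9 and 10.3 RPKM in IRI samples, against 4.07, 4.06 and 4.05 RPKM in sham samples (log2 2.19 ± 0.31, adjusted p = 0.00108). The sham samples were nearly equal, and the IRI samples were spread widely and all lay above them. Its paralog Ctps2 was not called (-0.17 ± 0.10), with 18.0 ± 1.32 RPKM in IRI and 20.8 ± 0.901 RPKM in sham. Of the proteins that carry phosphatidylcholine between membranes, Pctp fell to 2.13, 2.72 and 2.30 RPKM in IRI samples, against 8.39, 7.35 and 8.73 RPKM in sham samples (-1.74 ± 0.16, adjusted p = 6.4e-05). Stard7, which supplies mitochondria, fell as well (-0.56 ± 0.12, adjusted p = 0.0045). Stard10 rose (0.86 ± 0.13, adjusted p = 0.000723), with 120.2 ± 18.9 RPKM in IRI and 67.7 ± 4.19 RPKM in sham (SD, n = 3 each). The list thus had 2 genes that rose, 2 that fell and 1 not called (median -0.17).

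**Figure D5:**
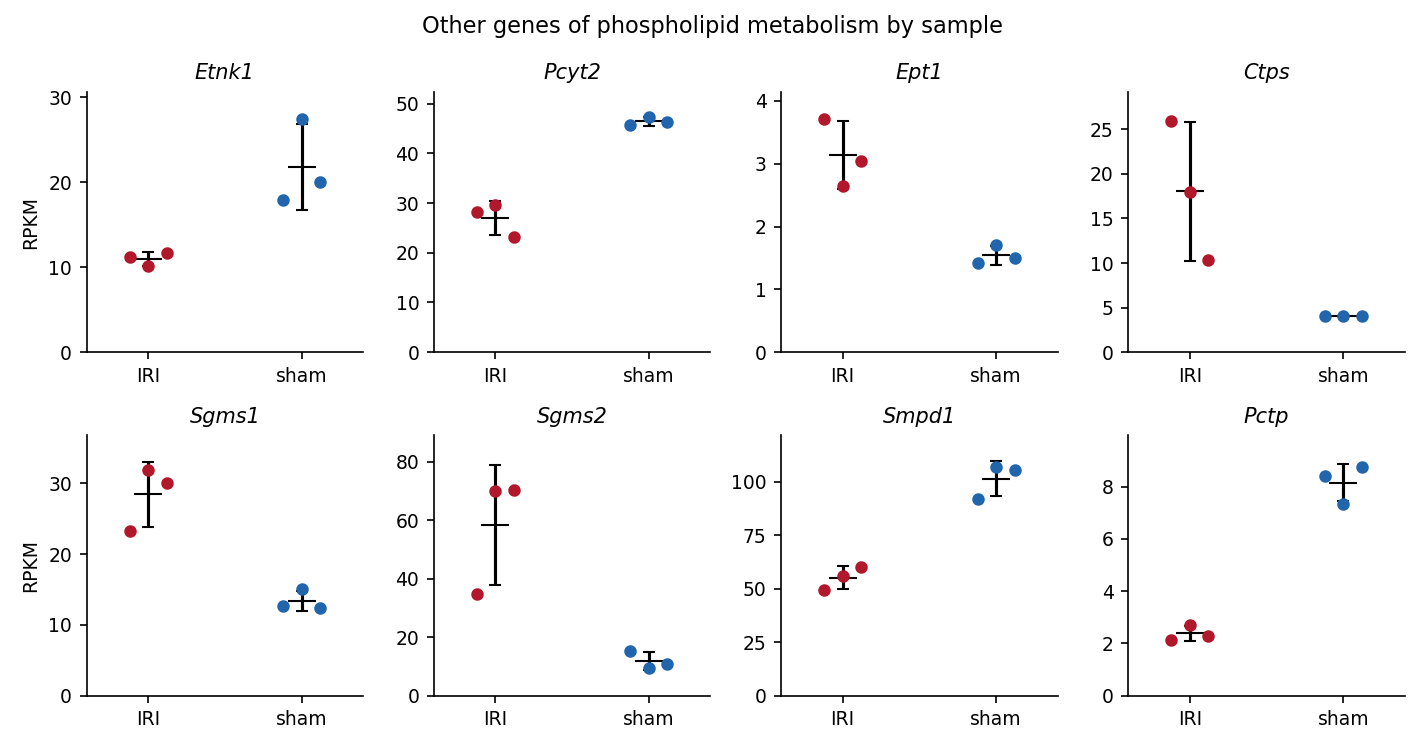
RPKM of 8 further genes of phospholipid metabolism in the 3 IRI samples (red, left) and the 3 sham samples (blue, right), with the mean and SD in black; each panel has its own axis from 0. Ept1, Ctps, Sgms1 and Sgms2 are higher in all IRI samples and Etnk1, Pcyt2, Smpd1 and Pctp lower, and the IRI samples of Ctps run between 10.3 and 25.9 RPKM.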

How the data were processed

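RNA was extracted from sorted cells with a kit for small amounts and made into libraries with SMARTer chemistry, per the labels' protocols. The tools were STAR, HTSeq and edgeR on build mm9, per the submitters' processing notes. Their versions and the gene models were not given in the sources used here. The authors deposited whole-number read counts per gene, counted without strand, and RPKM values with gene lengths. The deposited RPKM equalled the count over the length and an effective library size, so it is not independent of the counts. The 5 entries that name no gene, 49.3% to 50.9% of the reads of a library, were left out.

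Counts were fitted with edgeR 4.0.16 in R 4.3.3: filterByExpr, TMM scaling, a robust quasi-likelihood test with the group as its only term, and Benjamini-Hochberg adjustment over 13881 genes. Standard errors came from the F statistic. The fit was tested on simulated counts. DESeq2 1.42.0, limma 3.58.1 (on counts and on log2 of RPKM plus 1 or 0.1), other scalings and filters, a replicate block and leaving out each sample were the alternatives.

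The 10 genes and all lists were chosen with earlier results of these data known. Named were the 10 genes, up to 4 called genes of each list by size of change, the highest tested gene of each list that was not called, and the 5 profiles nearest to Chka and to Mboat1, of which 1 gene is not reported here. Overlaps used GENCODE M21 (GRCm38) and start windows used RefSeq (GRCm38.p6); both differ from the authors' build.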

Additional observations from a re-analysis of the deposited data

How the results depend on the processing

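The 10 genes were chosen on this contrast, so how often they are called supports nothing. Over the 15 alternatives the number called higher was 4 to 6, and that called lower was 0 to 1 with single samples left out, 1 when scaled by library size alone and 1 by the upper quartile, in each case Pld1 (without IRI sample 1 or sham sample 1, among single samples). Several log2 fold changes near 0 changed sign. With library size alone Chpt1 gave -0.056, Cept1 -0.083, Agpat6 -0.15 and Gde1 -0.088, and with upper-quartile scaling Agpat6 gave -0.074 and Gde1 -0.0059; these scalings move the median of all genes by -0.20 and -0.12. With single samples left out, Agpat6 ran from -0.063 to 0.16 and Chdh from -0.013 to 0.40. The cause was not tested. Among named genes not called, Ptdss1 was called higher without IRI sample 2 and Chdh and Slc44a4 without IRI sample 3, and Ctps2 was called lower under both other scalings. Calls over all genes were 3364 higher and 2948 lower (53.3% of calls higher), 2400 and 4337 (35.6%) with library size alone, and 2748 and 3789 (42.0%) under the upper quartile.

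A replicate block gave 3368 higher and 3095 lower genes, 6 and 0 of the 10 genes, and 17 and 23 of the other pathway genes. Deviations of same-numbered IRI and sham samples correlated by 0.182, 0.0952 and 0.178, and every sample correlated best with its own number, a hint from the data and not the design. With the block, Lpcat1 lost its call (adjusted p = 0.0673, edgeR) and Mboat2 was called lower (adjusted p = 0.0269, edgeR). Depth limits Pld1 and Pcyt1b, with at most 29 reads in any library; the other 8 genes had 774 to 16062.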
